A study of Rattus norvegicus with 12 samples.

Results

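Colec12, Prrg4, Slc9a3, Brinp2, Efhd1, Tceal1 and Capn6 are 7 genes, of 17419 in the deposited tables, whose transcripts were among those that fell most where a Btg1 siRNA was present in cultured neonatal rat ventricular cardiomyocytes. They were chosen by symbol, with the changes under the Btg1 siRNA known, so those changes are given below as a description and were not tested. All 7 had a row in the count and TPM tables and all 7 passed the filter on low counts, which kept 12535 genes. The cultures were cardiomyocyte-enriched primary cells from ventricles of newborn wild-type Sprague-Dawley rats, transfected by lipofection and collected 48 h later. Double knockdown cultures received 10 nM of Btg1 siRNA and 10 nM of Btg2 siRNA. Btg1 knockdown cultures received 10 nM of Btg1 siRNA with 10 nM of scrambled siRNA, and Btg2 knockdown cultures 10 nM of Btg2 siRNA with 10 nM of scrambled siRNA. Scramble cultures received 20 nM of scrambled siRNA. Each of the 4 groups had 3 libraries, whose origin in separate isolations is not stated in the labels, and the p-values cover the spread among libraries alone.

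Btg1 and Btg2 encode related antiproliferative proteins of the BTG/TOB family that bind the CCR4-NOT deadenylase, the enzyme complex that shortens mRNA tails. A small interfering RNA directs cleavage of the transcript it matches, and it can also lower other transcripts that pair with its seed. The 7 genes were not chosen for a shared pathway and have different roles. Colec12, Prrg4 and Slc9a3 encode cell surface proteins. Colec12 is a scavenger receptor with a collagen-like stalk and a C-type lectin domain, Prrg4 is a transmembrane protein with a vitamin K-dependent Gla domain, and Slc9a3 is the sodium-proton exchanger NHE3, best known from the apical membrane of gut and kidney epithelium. Brinp2 is a neurally expressed gene of the BRINP family. Efhd1 encodes a calcium-binding EF-hand protein of mitochondria, Tceal1 an X-linked nuclear protein related to transcription elongation factor S-II, and Capn6 a calpain that lacks the catalytic cysteine and binds microtubules in mouse cells.

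Library totals ran from 24434925 counts, in Btg2 knockdown replicate 2, to 46206581 counts. Counts of the 7 genes ran from 75, for Brinp2, to 1882, for Prrg4, in any library. The target itself, Btg1, was at 49.8 to 54.4 CPM (counts scaled to library size, with TMM) in the double knockdown and 61.8 to 69.9 CPM in the Btg1 knockdown, against 296 to 305 CPM in the Btg2 knockdown and 281 to 285 CPM in scramble. The Btg2 transcript was at 67.6 to 69.6 CPM in the double knockdown and 82.8 to 87.4 CPM in the Btg2 knockdown. Its level was 170 to 179 CPM in the Btg1 knockdown and 132 to 144 CPM in scramble. Cardiomyocyte markers were high in all groups: Tnnt2, cardiac troponin T, was at 7480 to 8433 TPM in the double knockdown, 6647 to 7446 TPM in the Btg1 knockdown, 6904 to 8535 TPM in the Btg2 knockdown and 6837 to 7235 TPM in scramble.

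Compared per transcript length (TPM), the 7 genes lay at low to moderate levels. In scramble cultures Prrg4 averaged 30.5 ± 1.74 TPM, Colec12 30.1 ± 0.833 TPM and Tceal1 24.3 ± 2.15 TPM (SD, n = 3). Efhd1 averaged 9.03 ± 0.551 TPM, Capn6 4.90 ± 0.400 TPM, Brinp2 3.47 ± 0.289 TPM and Slc9a3 3.00 ± 0.624 TPM (SD, n = 3). The scramble libraries did not separate Prrg4 from Colec12, or Brinp2 from Slc9a3, while the other neighbours in this order did not overlap. The order differed with the siRNA. In the Btg2 knockdown Brinp2 (6.13 ± 0.252 TPM) and Slc9a3 (5.27 ± 0.321 TPM) stood above Efhd1 (4.97 ± 0.473 TPM) and Capn6 (3.67 ± 0.551 TPM), although the libraries of Slc9a3 and Efhd1 overlapped (SD, n = 3 each). Prrg4 had the highest mean TPM of the 7 in every group.

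None of the 7 transcripts was lost. The lowest group means were those of Colec12, at 26.4% of the scramble level in the double knockdown and 25.5% in the Btg1 knockdown. Next was Capn6 in the double knockdown, at 28.2%, where Btg1 itself was at 18.3%. Every library with the Btg1 siRNA lay below every library without it for 6 of the 7 genes, a pattern shown by 7.71% of all tested genes. Efhd1 was the exception. Over the average of both backgrounds the log2 change with the Btg1 siRNA ran from -1.77 for Colec12 to -0.88 for Efhd1, with a median of -1.30, against 0.00 for all tested genes. Ranked from the largest fall among 12535 genes, Colec12 stood at place 7, Slc9a3 at 13, Brinp2 at 16, Tceal1 at 29, Capn6 at 32, Prrg4 at 43 and Efhd1 at 123. In the Btg1 knockdown against scramble alone, Prrg4 stood at place 605 and Efhd1 at 30. Where the Btg1 siRNA was added on the Btg2 knockdown, Prrg4 stood at 10 and Efhd1 at 1515.

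**Figure D1:**
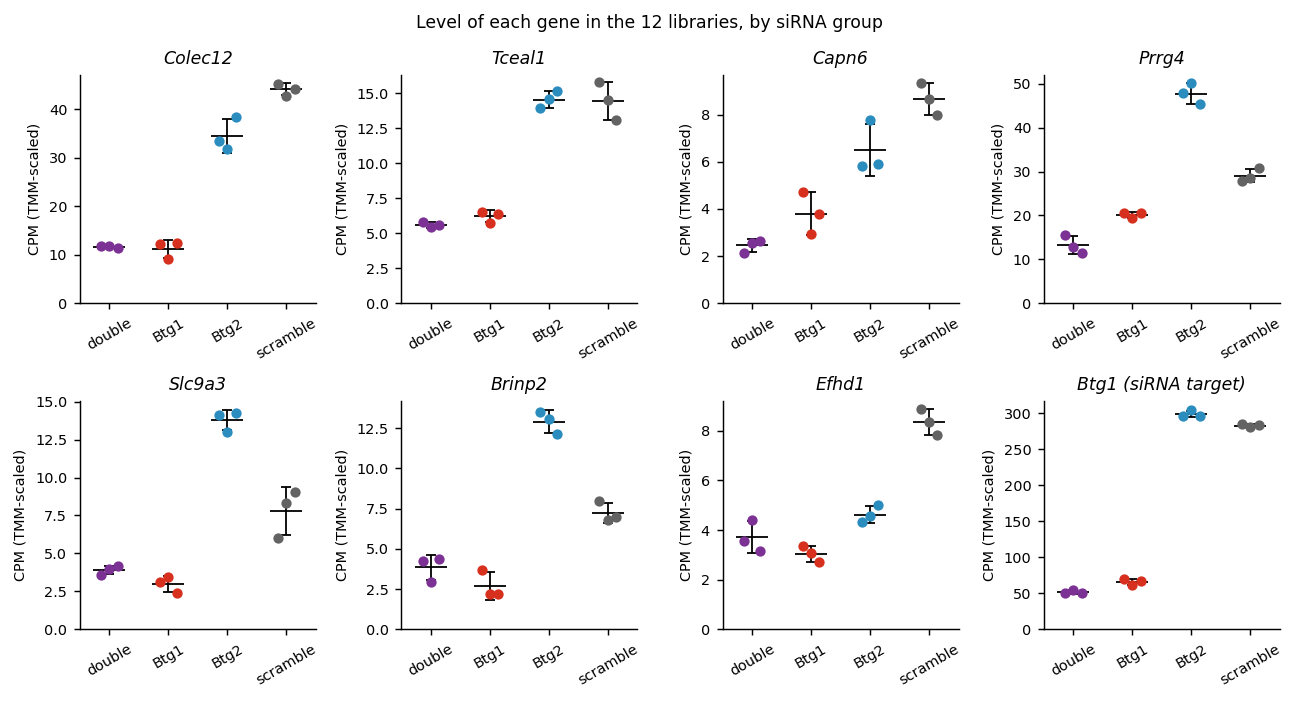
CPM of the 7 genes and of the target Btg1 in each of the 12 libraries (points), by group, with the group mean and SD (bars, n = 3 each). The 6 libraries with the Btg1 siRNA (double and Btg1) lie below the 6 without it for each gene except Efhd1, while the Btg2 libraries lie above scramble for Prrg4, Slc9a3 and Brinp2.

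Among the surface proteins, Colec12 was at 11.9, 11.7 and 11.4 CPM in double knockdown replicates 1 to 3 and at 12.3, 9.11 and 12.3 CPM in the Btg1 knockdown. It was at 33.4, 31.7 and 38.4 CPM in the Btg2 knockdown and at 45.2, 42.8 and 44.2 CPM in scramble. The double and Btg1 knockdown libraries overlapped, and the Btg2 knockdown lay between them and scramble. The log2 change was -1.92 ± 0.09 in the double knockdown against scramble, -1.97 ± 0.09 in the Btg1 knockdown against scramble and -1.57 ± 0.09 where the Btg1 siRNA was added on the Btg2 knockdown (SE).

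Prrg4 was at 15.5, 12.9 and 11.5 CPM in the double knockdown and at 20.5, 19.4 and 20.5 CPM in the Btg1 knockdown. It was at 47.8, 50.2 and 45.4 CPM in the Btg2 knockdown and at 27.9, 28.5 and 30.7 CPM in scramble. No 2 groups overlapped, and the Btg2 knockdown was the highest group and the double knockdown the lowest. The Btg1 siRNA left 69.4% of the scramble level when given alone, the smallest fall of the 7 genes in that comparison (log2 change -0.53 ± 0.08, SE). In the double knockdown 27.8% of the Btg2 knockdown level was left, the largest fall of the 7 in that comparison (-1.85 ± 0.08, SE).

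Slc9a3 was at 3.60, 3.95 and 4.17 CPM in the double knockdown and at 3.10, 3.45 and 2.41 CPM in the Btg1 knockdown. It was at 14.1, 13.0 and 14.2 CPM in the Btg2 knockdown and at 6.02, 8.31 and 9.07 CPM in scramble, where replicate 1 was the lowest. The groups did not overlap. Brinp2 had nearly the same levels: 4.25, 2.95 and 4.37 CPM in the double knockdown, 3.68, 2.18 and 2.18 CPM in the Btg1 knockdown, 13.5, 13.1 and 12.1 CPM in the Btg2 knockdown and 7.94, 6.82 and 6.96 CPM in scramble. For Brinp2 only the double and Btg1 knockdown libraries overlapped. The log2 changes with the Btg1 siRNA alone were -1.38 ± 0.14 for Slc9a3 and -1.40 ± 0.17 for Brinp2, and those on the Btg2 knockdown were -1.82 ± 0.14 and, for Brinp2, -1.74 ± 0.16 (SE).

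Among the intracellular proteins, Tceal1 was at 5.81, 5.41 and 5.56 CPM in the double knockdown and at 6.53, 5.71 and 6.38 CPM in the Btg1 knockdown. It was at 13.9, 14.6 and 15.1 CPM in the Btg2 knockdown and at 15.8, 14.6 and 13.1 CPM in scramble. Tceal1 thus fell into a low and a high set of libraries, with overlap inside each. The log2 change with the Btg1 siRNA was -1.22 ± 0.09 against scramble and -1.38 ± 0.10 on the Btg2 knockdown (SE).

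Capn6 was at 2.14, 2.56 and 2.65 CPM in the double knockdown and at 4.72, 2.92 and 3.77 CPM in the Btg1 knockdown. It was at 5.82, 7.80 and 5.91 CPM in the Btg2 knockdown and at 9.35, 8.69 and 7.99 CPM in scramble. The 4 groups did not overlap, and the double knockdown was the lowest. Its log2 change was -1.82 ± 0.16 in the double knockdown against scramble, -1.18 ± 0.15 in the Btg1 knockdown against scramble and -1.39 ± 0.16 where the Btg1 siRNA was added on the Btg2 knockdown (SE).

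Efhd1 was at 3.57, 4.42 and 3.15 CPM in the double knockdown and at 3.36, 3.08 and 2.70 CPM in the Btg1 knockdown. It was at 4.32, 4.55 and 5.01 CPM in the Btg2 knockdown and at 8.90, 8.36 and 7.82 CPM in scramble. All 3 knockdown groups lay below scramble, and the double knockdown overlapped both single knockdowns. The Btg1 siRNA left 36.4% of the scramble level when given alone, but the double knockdown was at 80.2% of the Btg2 knockdown, so that the log2 changes were -1.45 ± 0.13 and, on the Btg2 knockdown, -0.32 ± 0.14 (SE).

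The Btg2 siRNA given without the Btg1 siRNA was a contrast that did not choose the genes, although its scramble and Btg2 knockdown libraries also entered those that did. It moved 6 of the 7, in both directions: 3 rose and 3 fell, where 16.4% of all tested genes were called higher and 13.6% lower. A choice on falls from the Btg2 knockdown level would favour a rise here, and a choice on falls from scramble a fall. The shares of all tested genes are therefore not a like comparison. In edgeR, with adjustment over all tested genes, Brinp2 rose by 0.83 ± 0.15 on the log2 scale (adjusted p = 2.2e-04), Slc9a3 by 0.82 ± 0.13 (adjusted p = 3.4e-05) and Prrg4 by 0.72 ± 0.07 (adjusted p = 1.5e-07). These rises brought Brinp2 to 178%, Slc9a3 to 177% and Prrg4 to 165% of the scramble level. Efhd1 fell by 0.85 (SE 0.13, edgeR adjusted p = 2.9e-05) and Colec12 by 0.35 (SE 0.08, edgeR adjusted p = 0.0025). Capn6 changed by -0.43 ± 0.14 (edgeR adjusted p = 0.026). The Capn6 call ended without scramble replicate 1 (adjusted p = 0.10), scramble replicate 2 (0.067), Btg2 knockdown replicate 1 (0.11) or Btg2 knockdown replicate 3 (0.12) in edgeR, and with limma on either TPM scale (0.054 and 0.091). Tceal1 did not pass, at 0.01 ± 0.09 (edgeR adjusted p = 0.96), and its sign turned under library size alone and without scramble replicate 3 or Btg2 knockdown replicate 3.

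Where the Btg1 siRNA was already present, adding the Btg2 siRNA in place of scramble lowered 2 of the 7 genes and raised 0, against 11.9% of all tested genes called lower and 10.3% higher. Prrg4 fell by 0.60 (SE 0.08, edgeR adjusted p = 1.2e-05) and Capn6 by 0.64 (SE 0.17, edgeR adjusted p = 0.0081). The target Btg1 itself changed by -0.36 ± 0.05 in this contrast (edgeR adjusted p = 5.6e-06), and its part in these falls was not tested. The Capn6 call ended without Btg1 knockdown replicate 1, its highest library there (edgeR adjusted p = 0.094). The genes that rose with the Btg2 siRNA alone had changes of 0.50 ± 0.18 for Brinp2 (edgeR adjusted p = 0.053) and 0.38 ± 0.15 for Slc9a3 (edgeR adjusted p = 0.083). Brinp2 was called higher by DESeq2 (adjusted p = 0.020), with no filter (0.042) and without Btg1 knockdown replicate 1 (0.0022) or double knockdown replicate 2 (0.012), and Slc9a3 without scramble replicate 1 (0.046). An edgeR adjusted p of 0.18 went with Efhd1 (0.28 ± 0.14), 0.30 with Tceal1 (-0.15 ± 0.10) and 0.76 with Colec12 (0.05 ± 0.10). Libraries of this contrast, too, entered those that chose the genes.

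Averaged over both backgrounds, a contrast orthogonal to the mean effect of the Btg1 siRNA, the Btg2 siRNA raised Brinp2 and Slc9a3 and lowered Capn6 and Efhd1. That is 2 genes higher and 2 lower of 7, where 17.1% of all tested genes were called higher and 16.1% lower. The contrast is not orthogonal to the double knockdown change against scramble, which also entered the choice of the genes. A choice on that change would favour a fall here. The log2 changes were 0.67 ± 0.12 for Brinp2 (edgeR adjusted p = 1.6e-04), 0.60 ± 0.10 for Slc9a3 (6.6e-05), -0.54 ± 0.11 for Capn6 (6.6e-04) and -0.29 ± 0.10 for Efhd1 (0.025). The Efhd1 average joins changes of opposite sign and so describes neither background. They were -0.85 ± 0.13 against scramble and 0.28 ± 0.14 on the Btg1 knockdown, where the change did not pass. The Efhd1 call ended without scramble replicate 1 (edgeR adjusted p = 0.059), Btg1 knockdown replicate 1 (0.084), Btg2 knockdown replicate 1 (0.060) or double knockdown replicate 3 (0.067). Colec12, at -0.15 ± 0.06, did not pass (edgeR adjusted p = 0.075) but did without Btg1 knockdown replicate 2 (0.0038) or Btg2 knockdown replicate 3 (0.025).

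The 7 genes differed in how the effects of the siRNAs combined. The interaction term, which is the double knockdown change minus the sum of the single changes on the log2 scale, was called for 3 of 7, with 2 positive and 1 negative, where 4.99% of all tested genes were called positive and 10.1% negative. The term is orthogonal to the mean effect of the Btg1 siRNA, but it is also the difference between the Btg1 siRNA changes on the Btg2 knockdown and against scramble. A choice of genes on 1 of these changes alone would favour a departure. Prrg4 had the largest departure, -1.32 ± 0.11 (edgeR adjusted p = 3.7e-08): its single changes sum to 0.19 and the double knockdown changed by -1.13. Both targets departed too, Btg1 by -0.44 ± 0.06 (edgeR adjusted p = 2.9e-05) and Btg2 by -0.65 ± 0.06 (edgeR adjusted p = 1.4e-07). The Btg2 siRNA changed Btg2 by -0.70 ± 0.04 against scramble and by -1.35 ± 0.04 on the Btg1 knockdown (SE). The part of either target in the departures of the 7 genes was not tested. Efhd1 departed the other way, by 1.12 ± 0.19 (edgeR adjusted p = 2.7e-04), with single changes that sum to -2.30 and a double knockdown change of -1.17. Colec12 departed by 0.40 ± 0.13 (edgeR adjusted p = 0.037). The Colec12 call ended in edgeR without scramble replicate 1 (adjusted p = 0.080) or 3 (0.063), Btg1 knockdown replicate 2 (0.091), Btg2 knockdown replicate 1 (0.078) or 2 (0.089), or double knockdown replicate 1 (0.064) or 2 (0.069), and with limma on either TPM scale (0.057 and 0.063). For Slc9a3 (-0.44 ± 0.20), Brinp2 (-0.33 ± 0.23), Capn6 (-0.21 ± 0.22) and Tceal1 (-0.16 ± 0.13) the term did not pass (edgeR adjusted p = 0.15, 0.38, 0.58 and 0.46), so a weaker rise of Slc9a3 and Brinp2 in the presence of the Btg1 siRNA was not shown.

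**Figure D2:**
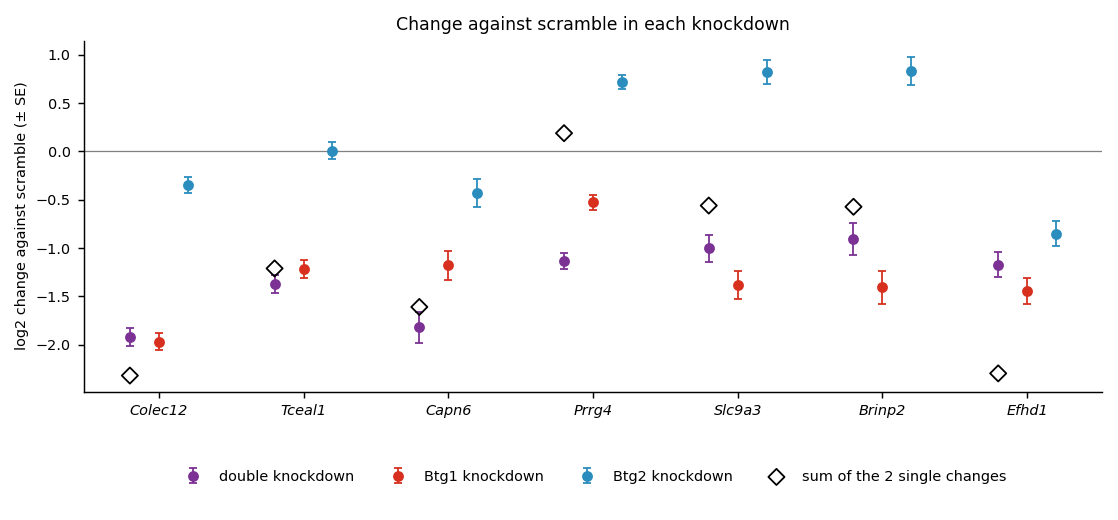
Log2 change against scramble of each gene in the double, Btg1 and Btg2 knockdowns (points, ± SE from edgeR), with the sum of the 2 single changes (open diamonds). The diamond lies above the double knockdown for Prrg4 (0.19 against -1.13) and below it for Efhd1 (-2.30 against -1.17), and close to it for Tceal1 (-1.21 against -1.37).

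Across the 12 libraries the log2 CPM of Slc9a3 and Brinp2 had a Pearson correlation of 0.95, and Tceal1 had 0.98 with Colec12 and 0.92 with Capn6. The lowest value was 0.43, between Prrg4 and Efhd1. These correlations are a description over 12 libraries that fall into the same 4 groups. Among 9781 genes with a mean of at least 5 CPM, the gene most like Tceal1 was the siRNA target Btg1 (r = 0.99), then Emc4 of the endoplasmic reticulum membrane complex and Sft2d2, a vesicle transport gene (r = 0.99 each). Sft2d2 averaged 42.1 CPM in the double knockdown and 44.4 CPM in the Btg1 knockdown, against 97.1 CPM in the Btg2 knockdown and 89.8 CPM in scramble. Nearest to Colec12 were Pttg1ip, the zinc finger gene Glis2 and Arpc5 of the Arp2/3 complex (r = 0.99 each). Glis2 averaged 76.9 CPM in the double knockdown and 79.4 CPM in the Btg1 knockdown, against 127 CPM in the Btg2 knockdown and 137 CPM in scramble.

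For the genes that rose with the Btg2 siRNA, the nearest genes were again searched over all 12 libraries. Nearest to Slc9a3 were the creatine transporter gene Slc6a8 (r = 0.98), Abcc9, which encodes the sulfonylurea receptor SUR2 of cardiac potassium channels (0.97), and the glycerol-3-phosphate dehydrogenase gene Gpd1 (0.97). Abcc9 averaged 180 CPM in the double knockdown and 165 CPM in the Btg1 knockdown, against 343 CPM in the Btg2 knockdown and 259 CPM in scramble. Nearest to Brinp2 were Fbxo32, the muscle ubiquitin ligase atrogin-1 (r = 0.98), Plpp5 (0.98) and Golt1b (0.975). Fbxo32 averaged 16.3 CPM in the double knockdown and 14.5 CPM in the Btg1 knockdown, against 33.7 CPM in the Btg2 knockdown and 25.7 CPM in scramble. Nearest to Prrg4 were the Gq subunit gene Gnaq (r = 0.98), the splicing factor gene Mbnl2 (0.98) and Rnf115 (0.98). Nearest to Efhd1 were Cyb5a (r = 0.97), Narf (0.97) and Mettl14 (0.96), and nearest to Capn6 were Sec16b, Yipf5 and Rab31 (r = 0.97 each). The choice of these genes depends on the measure: only Gnaq and Mettl14, 2 of the 21, were also among the nearest 3 by Spearman correlation.

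Relatives of the 7 genes were not used to choose them and could be tested under the Btg1 siRNA. The lists of relatives were, however, drawn up with earlier results of these data known. Of 100 listed relatives, 89 had a row and 70 were tested. Averaged over both backgrounds the Btg1 siRNA raised 20 and lowered 17 of them, with a median log2 change of 0.05, where 21.6% of all tested genes were called higher and 21.2% lower with a median of 0.00. Close paralogues moved in both directions. Of the class A scavenger receptors, Scara5 fell by 0.49 (SE 0.05, edgeR adjusted p = 2.3e-08) and Scara3 rose by 0.68 (SE 0.08, edgeR adjusted p = 2.1e-07), while Msr1, at -0.04 ± 0.09, did not pass (edgeR adjusted p = 0.77).

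The Gla protein genes Prrg1 (-0.14 ± 0.09, edgeR adjusted p = 0.22) and Prrg2 (-0.16 ± 0.15, edgeR adjusted p = 0.41) did not pass. Of 10 tested genes on that list 4 fell and 0 rose: Mgp (matrix Gla protein, -0.32 ± 0.04), Vkorc1 (-0.29 ± 0.04) and Ggcx (-0.18 ± 0.03) of the vitamin K cycle, and the quinone reductase gene Nqo1 (-0.34 ± 0.03). Among sodium-proton exchangers, Slc9a5 rose by 0.69 (SE 0.14, edgeR adjusted p = 4.6e-04). Slc9a5 averaged 2.41 CPM in the double knockdown and 1.85 CPM in the Btg1 knockdown, against 1.45 CPM in the Btg2 knockdown and 1.21 CPM in scramble. Brinp1 and Brinp3 were below the filter, at no more than 0.118 CPM in any group mean. Efhd2, the paralogue of Efhd1, rose by 0.18 (SE 0.03, edgeR adjusted p = 7.6e-05). This average joins 0.26 ± 0.05 against scramble with 0.10 ± 0.05 on the Btg2 knockdown, which did not pass (edgeR adjusted p = 0.097).

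The TCEAL and BEX genes, which lie together on the X chromosome with Tceal1, moved in both directions. Of 10 tested genes on that list, which also holds elongation factor genes, 6 rose and 2 fell. Tceal7 rose by 1.06 (SE 0.14), Tceal5 by 0.74 (SE 0.10), Bex1 by 0.70 (SE 0.05), Bex2 by 0.56 (SE 0.14), and Tceal8 and Bex3 by 0.20 each (SE 0.04 and 0.03), with edgeR adjusted p-values of 3.6e-10 (Bex1) to 0.0029 (Bex2). Tceal9 fell by 0.18 (SE 0.04, edgeR adjusted p = 1.9e-04) and Tcea3, an elongation factor S-II gene, by 0.32 (SE 0.06, edgeR adjusted p = 2.9e-04). The Tceal7 average joins 1.52 ± 0.18 against scramble with 0.59 ± 0.21 on the Btg2 knockdown. Its double knockdown did not pass against scramble (0.24 ± 0.20, edgeR adjusted p = 0.35). Members of this family resemble each other in sequence and the handling of multi-mapping reads is not stated, so their values are uncertain. Among the calpains, 3 of 10 tested genes rose, Capn1 by 0.19 (SE 0.04), Capn2 by 0.11 (SE 0.03) and Capn7 by 0.09 (SE 0.03), and 2 fell, Capn12 by 0.33 (SE 0.05) and the inhibitor calpastatin, Cast, by 0.26 (SE 0.04). Capn5, the calpain most related to Capn6, did not pass (0.06 ± 0.06, edgeR adjusted p = 0.40).

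Chromosomal neighbours were examined in the same way. Of 28 tested neighbours, 2 on each side of each gene, 4 rose and 6 fell with the Btg1 siRNA, where 21.6% of all tested genes were called higher and 21.2% lower. The falls were thus near the background share and the rises below it. The 6 that fell were Sec16b (-0.77 ± 0.06), Rasal2 (-0.18 ± 0.04) and Cop1 (-0.14 ± 0.03) beside Brinp2, Chrdl1 (-0.70 ± 0.17) beside Capn6, Eif3m (-0.10 ± 0.03) beside Prrg4 and Tceal9 beside Tceal1 (SE), with edgeR adjusted p-values of 1.4e-09 (Sec16b) to 0.0077 (Eif3m). The 4 that rose were Tppp beside Slc9a3 (1.08 ± 0.17, SE), Usp14 beside Colec12 (0.19 ± 0.03), Bex3 beside Tceal1 and Eif4e2 beside Efhd1 (0.10 ± 0.03), with edgeR adjusted p-values of 1.2e-05 (Tppp) to 0.010 (Eif4e2). Sec16b was also the gene most like Capn6.

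**Figure D3:**
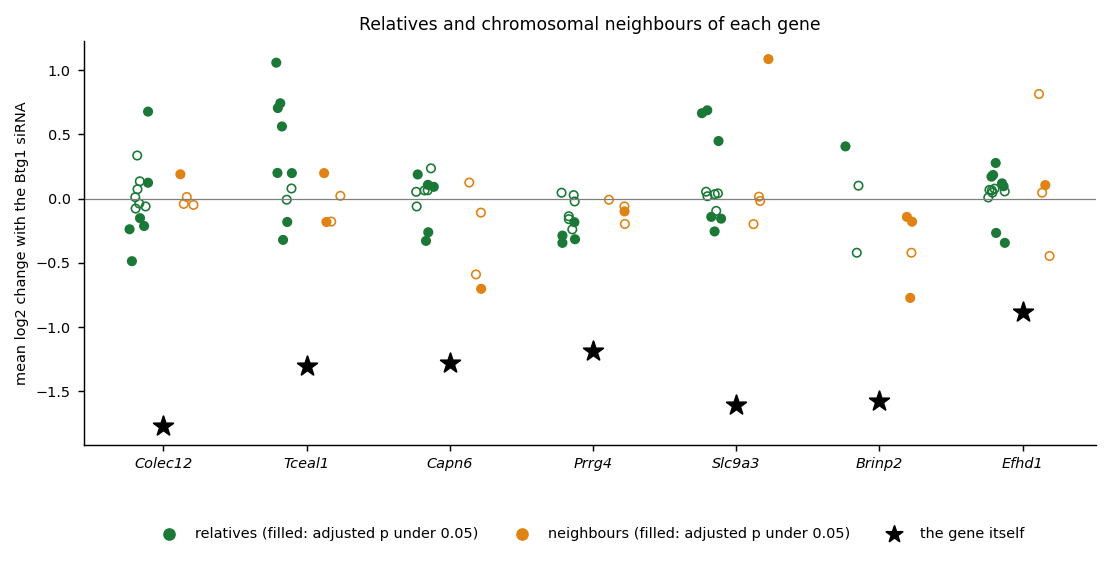
Mean log2 change with the Btg1 siRNA, over both backgrounds, of each of the 7 genes (stars), its tested relatives (green) and its 4 nearest tested neighbours (orange), with filled points for an edgeR adjusted p under 0.05. The stars, which show the falls that chose the genes, lie at -1.77 to -0.88, and the called relatives and neighbours lie on both sides of 0.

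Promoter windows from RefSeq (GRCr8, 250 bases before to 50 after the gene start) were found for 6 of the 7 genes, all but Brinp2. They were searched on both strands for 5 motifs. The canonical E-box, CACGTG, was in 3 of the 6 windows (Prrg4, Slc9a3 and Tceal1) and in 6.42% of all 33469 windows in the table. The GC box, GGGCGG, was in 4 windows (Slc9a3, Efhd1, Colec12 and Capn6; 33.1% of all windows), the CCAAT box in 2 (Colec12 and Capn6; 37.5%), the AP-1 motif TGACTCA in 1 (Capn6; 4.63%) and the TATA box, TATAAA, in 0 (14.2%). The windows of Colec12, Slc9a3 and Efhd1 held 70.3%, 66.7% and 63.3% G and C, those of Capn6 and Prrg4 52.0% and 50.7%, and the median window 51.7%. Tceal1 had the lowest share of the 6, just below that of Prrg4. The 3 windows with CACGTG and that of Efhd1, which held the most GGGCGG matches, are shown 5′ to 3′ on the strand of the gene, with the matches to any of the 5 motifs in capitals. They lie at chr3:111698156-111698455 (minus strand, Prrg4), chr1:30995953-30996252 (minus strand, Slc9a3), chrX:104850563-104850862 (plus strand, Tceal1) and chr9:95385927-95386226 (plus strand, Efhd1).
Prrg4: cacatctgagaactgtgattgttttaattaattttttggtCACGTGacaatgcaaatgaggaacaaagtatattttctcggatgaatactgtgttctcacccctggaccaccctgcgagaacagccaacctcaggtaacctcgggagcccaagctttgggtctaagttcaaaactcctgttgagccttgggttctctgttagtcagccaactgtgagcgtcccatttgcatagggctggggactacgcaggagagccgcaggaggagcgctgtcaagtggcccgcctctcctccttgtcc
Slc9a3: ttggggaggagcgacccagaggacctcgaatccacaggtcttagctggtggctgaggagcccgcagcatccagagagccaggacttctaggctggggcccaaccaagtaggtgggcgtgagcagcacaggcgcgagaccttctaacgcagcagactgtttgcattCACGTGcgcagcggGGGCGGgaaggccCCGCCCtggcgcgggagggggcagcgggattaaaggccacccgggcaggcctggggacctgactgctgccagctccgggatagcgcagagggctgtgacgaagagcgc
Tceal1: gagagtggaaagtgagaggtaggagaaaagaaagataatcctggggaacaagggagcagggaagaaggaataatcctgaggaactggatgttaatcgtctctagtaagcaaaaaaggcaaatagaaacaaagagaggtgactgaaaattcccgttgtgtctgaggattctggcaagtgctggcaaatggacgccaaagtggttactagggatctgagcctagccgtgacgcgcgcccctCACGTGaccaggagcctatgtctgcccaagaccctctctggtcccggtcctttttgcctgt
Efhd1: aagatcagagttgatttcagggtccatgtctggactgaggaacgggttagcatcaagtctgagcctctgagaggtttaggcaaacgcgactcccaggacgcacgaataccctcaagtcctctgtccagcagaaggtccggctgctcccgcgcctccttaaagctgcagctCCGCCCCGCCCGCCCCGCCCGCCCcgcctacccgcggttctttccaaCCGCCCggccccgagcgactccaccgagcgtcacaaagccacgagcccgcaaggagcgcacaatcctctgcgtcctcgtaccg
The CACGTG of Tceal1 lies near the gene start and that of Prrg4 near the far end of its window. In Efhd1 the GGGCGG matches are on the other strand, and all but the one nearest the start overlap one another. These matches are a description of the letters, with no measurement of binding here.

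Markers of other cells moved with the Btg1 siRNA too. In bulk cultures, fewer cells of a type and less RNA per cell cannot be told apart. The mean effect of the Btg1 siRNA is used for the counts of markers, to be read against 21.6% of all tested genes called higher and 21.2% lower. Of 10 tested fibroblast markers 7 fell and 0 rose, and their summed level was 78.9 to 89.4% of the scramble mean in the double knockdown and 79.9 to 91.0% in the Btg1 knockdown, against 95.8 to 97.8% in the Btg2 knockdown and 98.9 to 101% in scramble. The fibroblast collagen gene Col1a1 was at 1521 to 1677 TPM in the double knockdown and 1555 to 1833 TPM in the Btg1 knockdown, against 1988 to 2085 TPM in the Btg2 knockdown and 1932 to 1982 TPM in scramble. Fibroblast Dcn and Pdgfra were present in all libraries, Pdgfra at 49.7 to 53.4 TPM in the double knockdown, 49.5 to 57.0 TPM in the Btg1 knockdown, 43.1 to 48.1 TPM in the Btg2 knockdown and 56.6 to 60.4 TPM in scramble.

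Of 10 endothelial markers 4 fell and 1 rose, with a summed level of 74.7 to 84.2% of the scramble mean in the double knockdown, 88.1 to 95.4% in the Btg1 knockdown and 87.5 to 89.6% in the Btg2 knockdown, against 97.9 to 101% in scramble. The largest fall among them was that of Kdr, a VEGF receptor gene, at -0.45 ± 0.05 on the log2 scale (edgeR adjusted p = 1.3e-07). Kdr was at 6.4 to 8.0 TPM in the double knockdown, 9.7 to 11.2 TPM in the Btg1 knockdown and 9.4 to 10.9 TPM in the Btg2 knockdown, against 13.8 to 14.1 TPM in scramble. Among 12 markers of macrophages and leukocytes there were 2 falls and 0 rises, with summed levels of 72.9 to 79.6% in the double knockdown, 65.4 to 80.1% in the Btg1 knockdown and 65.9 to 69.3% in the Btg2 knockdown, against 89.0 to 110% in scramble. Their median log2 change with the Btg1 siRNA was -0.41 against scramble and 0.17 on the Btg2 knockdown. Of 5 tested Schwann and neuronal markers 3 fell and 1 rose. The largest fall of these markers was that of S100b, a glial calcium-binding protein gene, at -1.15 ± 0.18 on the log2 scale (edgeR adjusted p = 1.7e-05). It was at 0.9 to 1.1 TPM in the double knockdown, 0.7 to 0.9 TPM in the Btg1 knockdown and 2.0 to 2.6 TPM in the Btg2 knockdown, against 1.3 to 2.0 TPM in scramble. The sum of these markers was at 85.9 to 88.4% in the double knockdown, 80.1 to 85.3% in the Btg1 knockdown and 113 to 115% in the Btg2 knockdown, against 96.0 to 105% in scramble, the same order of groups as the mean levels of Slc9a3 and Brinp2. For smooth muscle 2 of 6 markers rose and 1 fell, for the epicardium 1 of 4 rose and 0 fell, and for cardiomyocytes 2 of 9 rose and 3 fell.

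The defining leukocyte marker Ptprc was at 0.1 to 0.2 TPM and the Schwann marker Sox10 at 0.0 to 0.2 TPM over all libraries, while no other defining marker with a row came to 0. The part of these shifts in the results for the 7 genes was not tested.

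**Figure D4:**
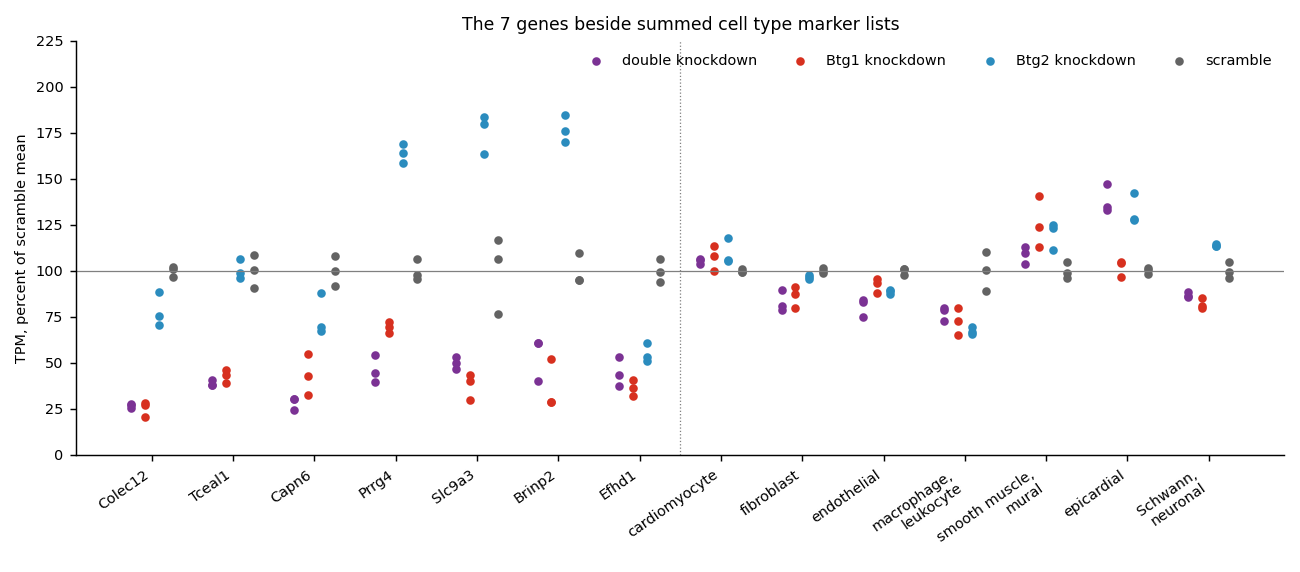
TPM as a percent of the scramble mean in each library (points) for the 7 genes, left of the dotted line, and for the summed markers of 7 cell types, right of it, by group. The summed fibroblast markers lie at 78.9 to 91.0% with the Btg1 siRNA. The 7 genes, chosen for their falls, lie at 20.6 to 72.1% there.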

How the data were processed

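The 12 libraries, 3 in each of 4 siRNA groups, were grouped by their titles. The authors deposited raw counts for 17419 gene symbols and TPM values rounded to 0.1. The submitters' processing notes name Trim Galore, cutadapt, STAR, featureCounts and the build rn5. Strand setting, annotation and treatment of multi-mapping reads: not given in the sources used here. RNA was amplified before library construction, per the labels' protocols.

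The counts were tested in edgeR 4.0.16 (R 4.3.3): after TMM scaling and filterByExpr, 12535 genes entered a robust quasi-likelihood fit of 4 group means over all libraries, with 8 residual degrees of freedom. Calls were made at a Benjamini-Hochberg adjusted p under 0.05 over all of them. The SE of a log2 change is its size divided by the root of its F value. A single count equalled 0.0213 to 0.0422 CPM. Each result was recomputed with DESeq2 1.42.0, other scalings, other filters, a fit of the compared groups alone, a replicate block, limma 3.58.1 on both TPM scales (pseudocounts of 1 and 0.1), and without each library in turn.

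The 7 genes and all lists were chosen with earlier results of these data known. The rule for other genes named Btg1 and Btg2, close paralogues and called genes on lists of relatives, called genes among the 2 nearest tested neighbours on each side (order from the RefSeq table of GRCr8), defining cell type markers, and the 3 genes most correlated with each of the 7 (log2 CPM, prior count 2, mean of at least 5 CPM). Some called relatives are given as counts alone, and a gene that the rule names is not reported here. Promoter sequences are RefSeq's, build GRCr8, and matched 6 of the 7 symbols.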

Additional observations from a re-analysis of the deposited data

Results flagged for a closer look

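Tests of the difference itself separated the Btg2 siRNA effect with the Btg1 siRNA from that without it for 3 genes. The departure was -1.32 for Prrg4, where the Btg2 siRNA changed the transcript by -0.60 with the Btg1 siRNA and by 0.72 without it, 1.12 for Efhd1 (0.28 and -0.85) and 0.40 for Colec12 (0.05 and -0.35), all on the log2 scale. The Prrg4 and Efhd1 departures passed in all 20 alternatives run, and that of Colec12 in 11 of the 20. The targets also departed, Btg1 by -0.44 (edgeR adjusted p = 2.9e-05) and Btg2 by -0.65 (edgeR adjusted p = 1.4e-07). The genes were chosen on Btg1 siRNA changes, whose difference between the 2 backgrounds is this same term, so the choice may favour a departure.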

How the results depend on the processing

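No gene turned direction under the Btg1 siRNA in any alternative. With limma on log2(TPM + 1), whose pseudocount shrinks low genes, the median log2 change of the 7 became -0.995 in the Btg1 knockdown against scramble and -1.32 where the Btg1 siRNA was added on the Btg2 knockdown. With the Btg2 siRNA on the Btg1 knockdown, 1 gene was called higher with DESeq2, with no filter and with the replicate block. Leaving out single libraries gave 0 to 1 higher and 1 to 2 lower there, 1 to 3 lower in the mean Btg2 effect, and 1 to 2 positive departures from additivity, of which limma on either TPM scale called 1. Positive departures over all genes numbered 626, 1004 with library size alone and 367 (without Btg1 knockdown replicate 3) to 634 with single libraries left out, with 369 without scramble replicate 1. Sign turned only where no call stood: Tceal1 in the Btg2 knockdown was -0.0256 with library size alone and ran from -0.0587 (without scramble replicate 3) to 0.0715 with single libraries left out, Colec12 on the Btg1 knockdown from -0.0775 (without Btg1 knockdown replicate 2) to 0.126, and Prrg4 in the mean Btg2 effect from -0.0069 (without double knockdown replicate 1) to 0.103. The cause was not tested.

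Same-numbered libraries did not deviate together (r from -0.09 to 0.06 over 18 pairs), so the numbers were not treated as pairs. With the replicate block, Brinp2 on the Btg1 knockdown (0.52, edgeR adjusted p = 0.024) and Colec12 in the mean Btg2 effect (-0.15, edgeR adjusted p = 0.050) were called. Counts of 75 to 590 per library limit the precision of Slc9a3, Brinp2, Efhd1 and Capn6 most.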
